A study of Mus musculus with 22 samples.

Results

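Expression of 31 genes of fatty acid burning was followed in mouse liver across 2 genotypes and 3 glucagon doses. They are the enzymes of mitochondrial fatty acid oxidation and its carnitine entry, enzymes of ketone bodies, peroxisomal enzymes, the nuclear receptor Ppara and a set of its known targets. The genes were chosen by name. All 31 were among the 24475 genes of the table and among the 11590 that were tested, those with a mean of at least 0.5 RPKM (reads per kilobase of transcript and scaled to the library's reads, a scale on which levels of different genes can be compared). Liver poly(A) RNA was measured in 22 libraries. Wild-type (WT) mice and mice without Gcg, the gene of the glucagon precursor (labelled Gcg KO, here Gcg-/-), each gave 3 libraries without infusion, 4 with glucagon infused at 30 µg/d and 4 with 150 µg/d. The labels used here give no strain, sex, age, feeding state, route or length of infusion, and do not tie libraries to mice. All p-values are therefore against the spread of these libraries, which may be technical in part. Libraries are called by their running number: 1 to 3 are uninfused WT, 4 to 6 uninfused Gcg-/-, 7 to 10 WT and 11 to 14 Gcg-/- at 30 µg/d, and 15 to 18 WT and 19 to 22 Gcg-/- at 150 µg/d.

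Long-chain fatty acids are activated to acyl-CoA, carried into mitochondria as carnitine esters and shortened there in repeated rounds of dehydrogenation, hydration, a further dehydrogenation and thiolysis. In the liver the resulting acetyl-CoA can be turned into ketone bodies, which other tissues burn during fasting. PPARalpha, the product of Ppara, is a lipid-activated nuclear receptor that binds DNA with RXR at repeats of AGGTCA spaced by 1 base (DR1) and induces many of these genes in fasted liver. Glucagon acts on hepatocytes through a receptor that raises cAMP, and is known as a fasting hormone that favours fatty acid oxidation and ketogenesis.

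The promoters show how far these genes share regulatory letters. RefSeq promoters (GRCm38.p6, from 250 bases before to 50 after the start) were at hand for 24 of the 31 genes, in 26 promoters. None was at hand for the PPARalpha targets Cyp4a10, Cyp4a14, Vnn1 and Angptl4, or for Acat1, Decr1 and Acaa2. AGGTCANAGGTCA, searched on both strands, matched with at least 10 of its 12 fixed letters in 4 of the 24 genes. It did so in 3.86% of all 32851 promoters of the same length. With at least 9 letters it matched in 8 of the 24 genes and in 24.6% of all promoters. A single AGGTCA was in 5 of the 24 genes and in 16.3% of all promoters. The 4 sites with at least 10 letters are shown as the letters nearest to the PPARalpha element, with capitals for the letters that match it. The Plin2 site is at chr4:86670272-86670284 (plus strand), the Echs1 site at chr7:140116492-140116504 (minus), the Etfa site at chr9:55512308-55512320 (plus) and the Slc25a20 site at chr9:108662142-108662154 (plus).
Plin2: AGGTCAggGGTCc
Echs1: AGGTCAcgGGTCc
Etfa: AGGgCAaAGGTaA
Slc25a20: AGGTgAaAGGTCg

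The first AGGTCA copy is complete in Plin2 and Echs1. In Etfa and Slc25a20 each copy of the repeat departs from AGGTCA in at least 1 letter. The complete cAMP response element TGACGTCA was in 0 of the 24 genes and in 1.79% of all promoters. Its shorter core TGACG was in the promoters of 5 genes (Etfdh, Acadm, Etfa, Ppara and Ehhadh) and in 20.8% of all promoters. A match is a description of the letters, not a measured binding site. 3 upstream stretches are printed because results below turn on these genes: Hadha and Hadhb start head to head, Etfdh was the member that passed the test, and Plin2 holds the DR1-like site. The stretch between Hadha and Hadhb is chr5:30155163-30155247 (plus strand) and lies within the 272 bases that separate the RefSeq starts of the 2 genes. The Etfdh stretch is chr3:79628864-79629017 (minus strand), with the TGACG core, here in its other orientation CGTCA, in capitals. The Plin2 stretch is chr4:86670218-86670309 (minus strand), with the DR1-like site, in reverse orientation to the line above, in capitals.
Hadha-Hadhb: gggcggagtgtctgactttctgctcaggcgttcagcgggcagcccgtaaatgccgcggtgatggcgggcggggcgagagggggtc
Etfdh: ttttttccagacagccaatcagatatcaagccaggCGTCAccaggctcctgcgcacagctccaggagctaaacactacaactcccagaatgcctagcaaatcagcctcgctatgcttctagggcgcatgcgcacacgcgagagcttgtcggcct
Plin2: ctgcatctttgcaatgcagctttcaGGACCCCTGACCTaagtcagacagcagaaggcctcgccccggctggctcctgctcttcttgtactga

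Totals and gene ranks were similar across libraries. RPKM sums were 558222 to 596386, and the depth estimated from the steps between low values was 11.17 to 17.78 M reads. Spearman's rho between libraries of a group was 0.949 to 0.989 across genes. The 10 hepatocyte markers summed to 36190 to 79810 RPKM in every library, so the tissue label held. Single abundant genes were less even: Alb was at 53680 RPKM in library 4 and 45260 RPKM in library 13, beside a median of 25410 RPKM. Library 4 (uninfused Gcg-/-) and library 13 (Gcg-/- at 30 µg/d) stood apart: 10 genes known to be higher in female liver averaged 4.223 and 2.753 on the log2 scale there and 0.761 to 1.211 in the other 20, and 13 male-biased genes averaged 4.924 and 6.437 there and 7.656 to 9.093 elsewhere. Library 21 (Gcg-/- at 150 µg/d) held skeletal muscle RNA, with creatine kinase Ckm at 14.8 RPKM and at most 0.506 RPKM in any other library. Without library 21, 0 of the 31 genes were called at 150 µg/d in Gcg-/-, as with it. Over all genes, 115 of 11582 were called without it.

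Mitochondrial enzymes were abundant and steady, while most of the PPARalpha targets varied widely between libraries. Mean levels of the 21 genes of mitochondrial oxidation, its entry and ketone bodies ran from 47.3 RPKM for Cpt2 to 412 RPKM for Acaa2, the thiolase that closes the cycle. Over all 22 libraries the highest value was under 2 times the lowest for 16 of these 21 genes, and the range was narrowest for Acads, the short-chain acyl-CoA dehydrogenase, at 1.26-fold. Their median spread between libraries of a group (SD of log2 values) was 0.160, beside 0.164 over all genes tested. The 10 peroxisomal, Ppara and target genes had a median of 0.568, from 0.252 for Ppara to 2.06 for Cyp4a14, a fatty acid omega-hydroxylase whose spread was higher than that of 99.89% of the genes tested. Cyp4a14 ran from 0.727 to 330.9 RPKM, a 455-fold range, and its neighbour Cyp4a10 from 8.39 to 457 RPKM, a 54.5-fold range.

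**Figure D1:**
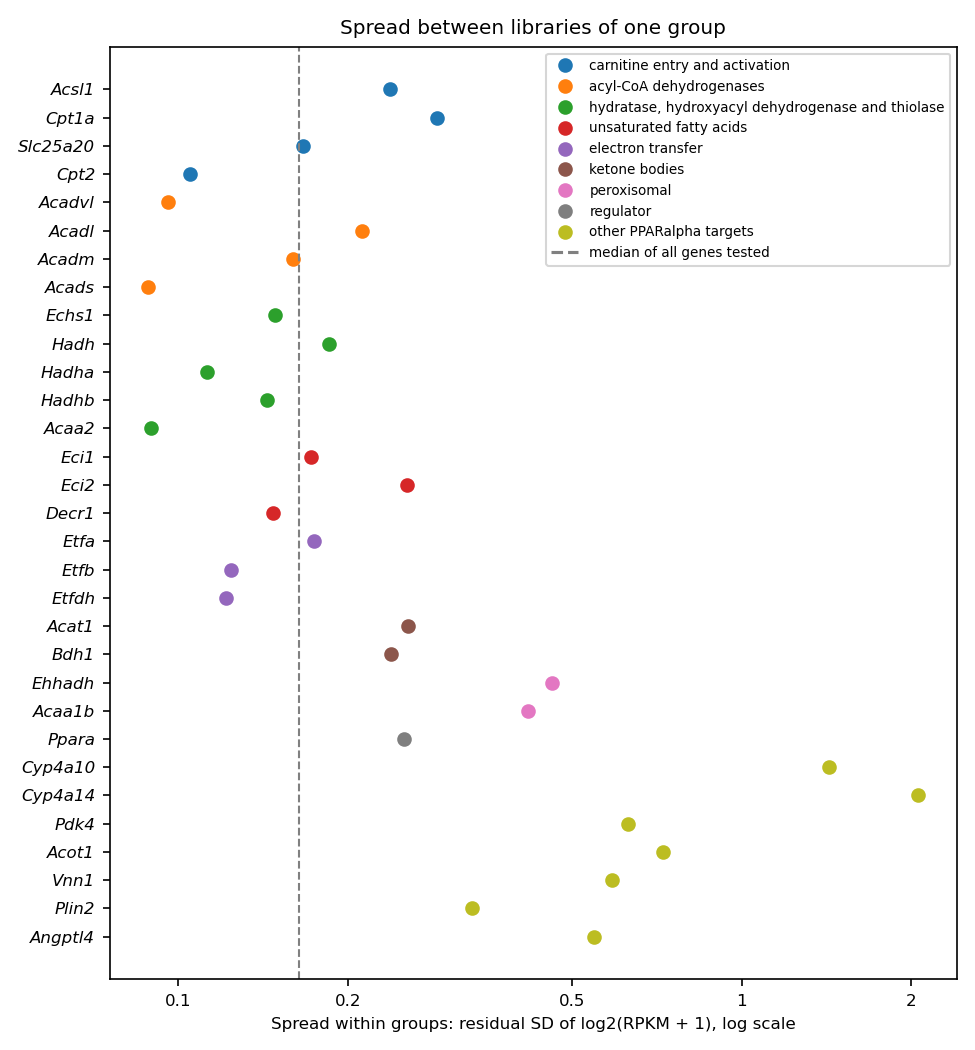
Spread between libraries of a group for each gene: residual SD of log2(RPKM + 1) from the fit of the 6 groups, on a log axis, coloured by role. The dashed line is the median of all genes tested, 0.164; the mitochondrial enzymes lie between 0.0885 and 0.288, and Cyp4a14 lies farthest to the right at 2.06.

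Few differences between groups exceeded this spread. In limma, with p-values adjusted over all 11590 genes, 1 of the 31 genes passed 0.05 in 1 of 11 comparisons: Etfdh was lower in uninfused Gcg-/- than in uninfused WT liver. In that comparison 1.54% of all genes were called. None of the 31 was called in the other main comparisons, in which the shares of all genes called were 0% for 30 µg/d and 0.293% for 150 µg/d in WT, and 0.0863% for 30 µg/d and 2.72% for 150 µg/d in Gcg-/-. None was called between the doses (0.00863% of all genes in WT and 0.544% in Gcg-/-) or between the genotypes at 30 µg/d (0.328%) and 150 µg/d (0.0259%). None was called in the tests of whether the dose effect differed between genotypes (0.00863% at 30 µg/d and 0% at 150 µg/d).

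At an unadjusted p under 0.05, limma gave 2 of the 31 genes for uninfused Gcg-/- against WT, beside 17.5% of all genes. The counts in WT were 0 at 30 µg/d, beside 5.67%, and 4 at 150 µg/d, beside 12.1%. In Gcg-/- they were 3 at 30 µg/d, beside 10.1%, and 9 at 150 µg/d, beside 18.4%. For 150 against 30 µg/d the counts were 1 in WT, beside 8.12%, and 4 in Gcg-/-, beside 12.9%. Between genotypes they were 4 at 30 µg/d, beside 11.9%, and 0 at 150 µg/d, beside 1.99%. For the difference of dose effects they were 2 at 30 µg/d, beside 9.02%, and 1 at 150 µg/d, beside 10.2%.

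The intervals show how large a difference could have gone unseen. For the 21 mitochondrial and ketone genes, limma's 95% interval of the difference stayed within 1 log2 unit, a 2-fold change, for 21 of 21 in Gcg-/- against WT, at both doses in WT and at 30 µg/d in Gcg-/-, and for 20 of 21 at 150 µg/d in Gcg-/-. Over all genes tested, 91.6 to 95% of intervals stayed within it in these 5 comparisons. The exception among the 21 was Cpt1a, with an upper bound of 1.0005. Of all 31 genes, 25 stayed within 1 log2 unit in Gcg-/- against WT. In WT 25 did so at 30 µg/d and 24 at 150 µg/d, and in Gcg-/- 23 and 22. Most of the 10 peroxisomal, Ppara and target genes therefore did not, so a 2-fold change in them could have gone unseen. The intervals of Cyp4a14 were the widest of the 31 in the 2 comparisons plotted, from -2.38 to 4.05 for Gcg-/- against WT.

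**Figure D2:**
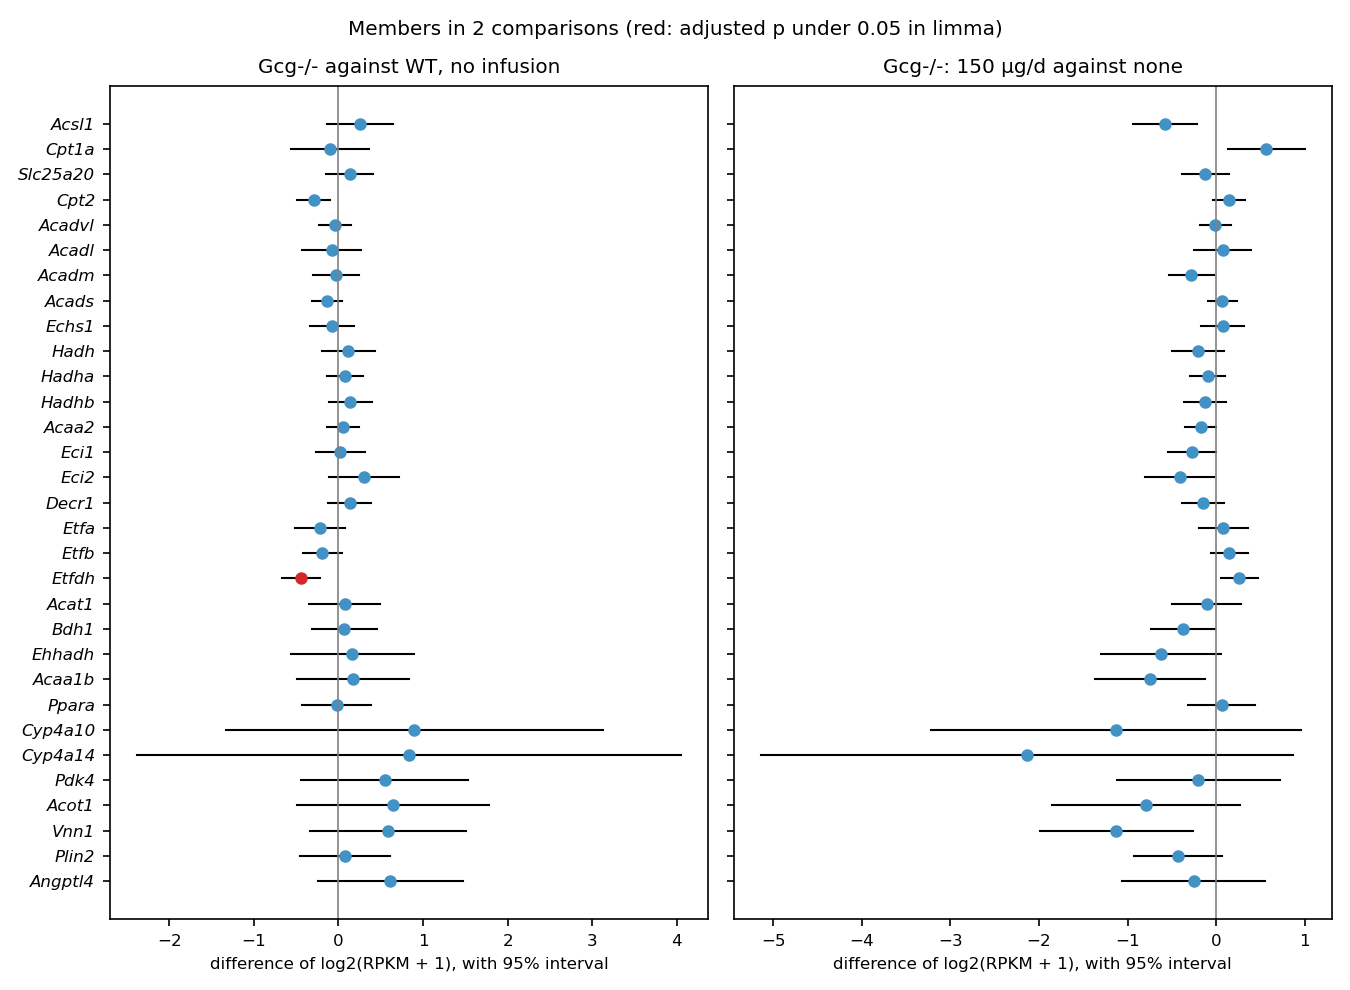
Difference of mean log2(RPKM + 1), with limma's 95% interval as a bar, for each of the 31 genes: uninfused Gcg-/- against WT on the left, and 150 µg/d against no infusion in Gcg-/- on the right, each on its own scale. Etfdh on the left, at -0.44, is the red point, and the Cyp4a genes have the longest bars.

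The median difference of the 31 genes was 0.08 on the log2 scale for Gcg-/- against WT, beside 0.01 over all genes. It was -0.02 (all genes -0.01) at 30 µg/d and -0.10 (all genes -0.02) at 150 µg/d in WT, and -0.16 (all genes -0.02) at 30 µg/d and -0.17 (all genes -0.04) at 150 µg/d in Gcg-/-. In Gcg-/- liver 26 of the 31 genes were below 0 at 30 µg/d, beside 55.8% of all genes, and 22 of 31 at 150 µg/d, beside 58.4%; the 2 comparisons share the uninfused Gcg-/- libraries. Without library 4 the medians in Gcg-/- were -0.08 and -0.09, and that for Gcg-/- against WT was -0.04, so its sign turned. In WT the median at 30 µg/d was -0.09 without library 7 and 0.01 without library 10, and that at 150 µg/d was -0.03 without library 17. Library 4 was the highest of all 22 for 12 of the 31 genes and the highest of its group for 25, with a median deviation of 0.2004 from its group's means. Library 7 (WT at 30 µg/d) was the highest of all 22 for 10 genes and the highest of its group for 24, with a median deviation of 0.247. Library 17 (WT at 150 µg/d) was the lowest of all 22 for 9 genes and library 21 for 5.

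**Figure D3:**
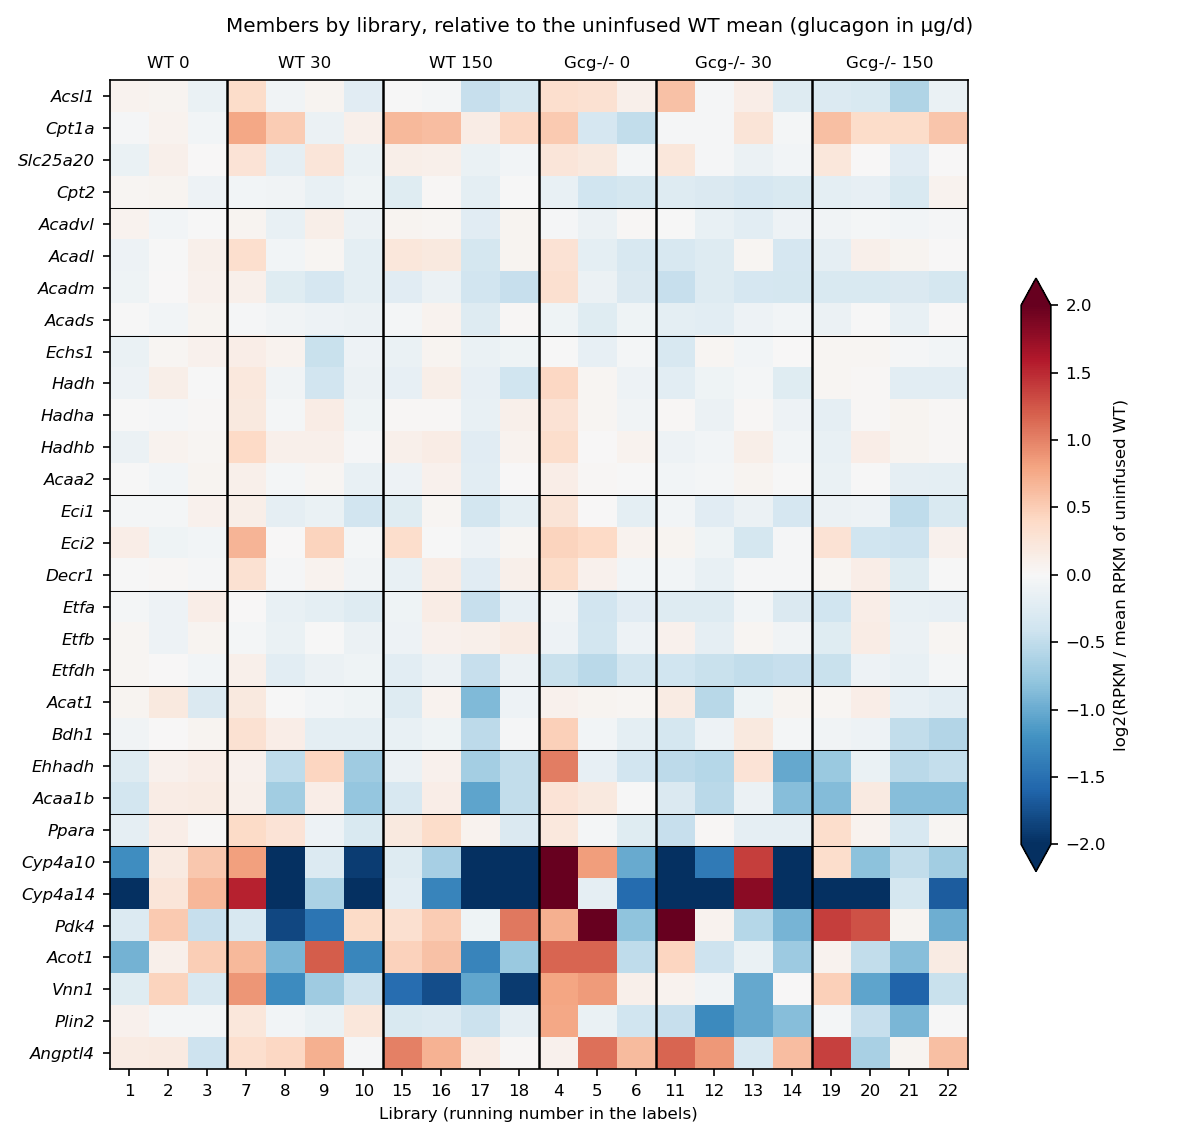
Each cell is log2 of a library's RPKM over the mean of uninfused WT, with libraries in columns by group and genes in rows by role; values past 2 in either direction take the end colours. The mitochondrial rows are pale throughout, while Cyp4a10 and Cyp4a14 change colour from library to library within groups.

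In the carnitine entry step, 2 genes had an unadjusted p under 0.05 at 150 µg/d in Gcg-/-, Acsl1 lower and Cpt1a higher. Acsl1, which activates long-chain fatty acids to acyl-CoA, was at 261, 257 and 225 RPKM in uninfused WT and at 312, 307 and 267 RPKM in uninfused Gcg-/- libraries. Acsl1 at 30 µg/d stood at 321, 235, 257 and 212 RPKM in WT and 372, 244, 272 and 207 RPKM in Gcg-/-. Acsl1 at 150 µg/d stood at 246, 242, 179 and 194 RPKM in WT and 204, 199.9, 163 and 226 RPKM in Gcg-/-. Each uninfused Gcg-/- library lay above each uninfused WT library and above each Gcg-/- library at 150 µg/d. The difference at 150 µg/d in Gcg-/- was -0.58 ± 0.17 (log2, SE) and did not pass the test (limma adjusted p = 0.0832).

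Cpt1a, the carnitine palmitoyltransferase of the outer mitochondrial membrane and the main control point of the pathway, was at 97.6, 103 and 95.2 RPKM in uninfused WT and at 142, 78.2 and 70.3 RPKM in uninfused Gcg-/- libraries. Cpt1a at 30 µg/d stood at 168, 140.1, 91.1 and 106 RPKM in WT and 97.03, 97.03, 118 and 96.4 RPKM in Gcg-/-. Cpt1a at 150 µg/d stood at 154, 151, 109 and 132 RPKM in WT and 150.1, 127, 127 and 145 RPKM in Gcg-/-. In WT each library at 150 µg/d lay above each uninfused library. In Gcg-/- the same would hold but for library 4, which at 142 RPKM lay within the range of the infused group. The difference at 150 µg/d was 0.45 ± 0.21 in WT (limma adjusted p = 0.388) and 0.57 ± 0.21 in Gcg-/- (limma adjusted p = 0.147), and the 2 dose effects differed by 0.11, with a 95% interval from -0.50 to 0.73. Without library 4 the difference in Gcg-/- was 0.88 ± 0.18, with a limma adjusted p of 0.0373, and without library 6 it was 0.37 ± 0.22, with a limma adjusted p of 0.362.

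Cpt2, which releases acyl-CoA inside the mitochondrion, was at 53.6, 54.7 and 48.9 RPKM in uninfused WT and at 47.4, 39.8 and 41.2 RPKM in uninfused Gcg-/- libraries. Cpt2 at 30 µg/d stood at 50.4, 49.9, 47.2 and 49.6 RPKM in WT and 43.9, 42.9, 41.7 and 42.6 RPKM in Gcg-/-. Cpt2 at 150 µg/d stood at 44.5, 53.1, 45.9 and 52.2 RPKM in WT and 46.02, 46.5, 42.3 and 55.05 RPKM in Gcg-/-. The 3 uninfused Gcg-/- libraries lay below the 3 uninfused WT libraries, and the same order held between the genotypes at 30 µg/d but not at 150 µg/d. The uninfused difference was -0.29 ± 0.09 (limma adjusted p = 0.118). Slc25a20, the carnitine-acylcarnitine carrier, had group means of 48.4 to 53.2 RPKM.

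Among the acyl-CoA dehydrogenases, which catalyse the opening step for different chain lengths, group means were 136 to 147 RPKM for Acadvl (very long chains), 74.2 to 88.8 RPKM for Acadl (long) and 64.4 to 70.9 RPKM for Acads (short). Acadm, the medium-chain enzyme, was at 121, 129 and 137 RPKM in uninfused WT and at 161, 119 and 105 RPKM in uninfused Gcg-/- libraries. Acadm at 30 µg/d stood at 138, 109, 102 and 113 RPKM in WT and 93.2, 108, 102 and 100.5 RPKM in Gcg-/-. Acadm at 150 µg/d stood at 110.0, 119, 98.5 and 93.9 RPKM in WT and 104, 104, 106 and 102 RPKM in Gcg-/-. The infused Gcg-/- libraries, at 93.2 to 108 RPKM, overlapped the uninfused ones only through library 6 at 105 RPKM. The difference was -0.32 ± 0.12 at 30 µg/d (limma adjusted p = 0.388) and -0.28 ± 0.12 at 150 µg/d (limma adjusted p = 0.230) in Gcg-/-, against the same controls, and -0.29 ± 0.12 at 150 µg/d in WT (limma adjusted p = 0.340). Without library 4 the 2 Gcg-/- values were -0.15 and -0.10.

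Hadha and Hadhb encode the subunits of the mitochondrial trifunctional protein, which carries out the later steps on long chains. Hadha, the alpha subunit, was at 121, 120.4 and 123 RPKM in uninfused WT and at 148, 124 and 116 RPKM in uninfused Gcg-/- libraries. Hadha at 30 µg/d stood at 139, 118, 135 and 114 RPKM in WT and 124, 112, 123 and 114 RPKM in Gcg-/-. Hadha at 150 µg/d stood at 124, 124, 110.1 and 130.4 RPKM in WT and 108, 124, 126 and 123 RPKM in Gcg-/-. All 22 values lay between 108 and 148 RPKM, and the groups overlapped.

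Hadhb, the beta subunit, was at 76.2, 86.4 and 85.3 RPKM in uninfused WT and at 106, 82.9 and 86.5 RPKM in uninfused Gcg-/- libraries. Hadhb at 30 µg/d stood at 108, 88.2, 88.8 and 81.2 RPKM in WT and 76.9, 79.5, 89.98 and 79.2 RPKM in Gcg-/-. Hadhb at 150 µg/d stood at 88.2, 91.2, 70.5 and 86.5 RPKM in WT and 74.6, 90.3, 85.4 and 83.95 RPKM in Gcg-/-. Library 4 and library 7 were the high values for both genes. Once group means were removed, the divergent pair varied together over the 22 libraries, with Pearson's r = 0.787 (permutation p = 0.00184, adjusted p = 0.00368 over 4 pairs) and Spearman's rho = 0.697 (permutation p = 0.00354, adjusted p = 0.00708). Without libraries 4 and 19, the 2 farthest out for Hadha, r was 0.72. With Cyp4a14, on another chromosome, r was 0.614 for Hadha and 0.707 for Hadhb. The relation is therefore not shown to be particular to this pair or to its head-to-head start. The neighbouring steps had group means of 127 to 134 RPKM for Echs1 (enoyl-CoA hydratase), 118 to 142 RPKM for Hadh (hydroxyacyl-CoA dehydrogenase) and 385 to 435 RPKM for Acaa2.

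The 3 enzymes that prepare unsaturated fatty acids for the cycle showed no call. Group means were 54.2 to 66.1 RPKM for Eci1, 97.3 to 129 RPKM for Eci2 and 46.2 to 53.4 RPKM for Decr1. Eci2, an enoyl-CoA isomerase, ran from 81.6 to 107 RPKM in Gcg-/- at 30 µg/d, below the 109 to 141 RPKM of the uninfused Gcg-/- libraries. That difference was -0.40 ± 0.18 (limma adjusted p = 0.470), and -0.25 without libraries 4 and 13 (limma adjusted p = 0.974).

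Electron transfer held the change that passed. Etfdh lies at chr3:79603788-79628767 on the minus strand (GRCm38.p6). Etfdh, the dehydrogenase that hands electrons from the electron transfer flavoprotein to ubiquinone, was at 116, 114 and 109 RPKM in uninfused WT and at 83.01, 78.1 and 88.04 RPKM in uninfused Gcg-/- libraries. Etfdh at 30 µg/d stood at 121, 98.00, 104 and 106 RPKM in WT and 86.2, 83.1, 80.3 and 82.3 RPKM in Gcg-/-. Etfdh at 150 µg/d stood at 98.1, 104, 82.6 and 104 RPKM in WT and 83.3, 106, 102 and 109 RPKM in Gcg-/-. The highest uninfused Gcg-/- value, 88.0 RPKM, lay under the lowest uninfused WT value, 109 RPKM, and the genotypes did not overlap at 30 µg/d either. Etfdh fell by 0.44 ± 0.11 on the log2 scale in uninfused Gcg-/- against WT (95% interval -0.66 to -0.22, limma adjusted p = 0.0401), from a mean of 113 ± 3.45 to 83.0 ± 4.98 RPKM (SD, n = 3 each). With library 1, 2, 3, 4 or 5 left out, the call was lost (limma adjusted p 0.120 to 0.135), and without library 6 it was 0.0042. At 30 µg/d the genotype difference was -0.36 ± 0.09 and did not pass (limma adjusted p = 0.103).

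Etfdh at 150 µg/d no longer separated the genotypes, with a difference of 0.04 and a 95% interval from -0.15 to 0.23. In Gcg-/- 3 of the 4 libraries at 150 µg/d were at 102 to 109 RPKM, above the uninfused ones, and library 19 was at 83.3 RPKM among them. The difference from no infusion was 0.26 ± 0.10 in Gcg-/- (limma adjusted p = 0.161) and -0.22 ± 0.10 in WT (limma adjusted p = 0.371). The 2 dose effects differed by 0.48 ± 0.14, which did not pass (limma adjusted p = 0.237). Without library 19 the Gcg-/- difference was 0.35, with a limma adjusted p of 0.035. The flavoprotein's own subunits had group means of 171 to 199 RPKM (Etfa) and 179 to 213 RPKM (Etfb), lowest in uninfused Gcg-/- and without a call. An opposite-strand gene that shares exon bases with Etfdh, 4930579G24Rik, was at no more than 0.606 RPKM.

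Markers of other liver cells were compared in the same contrast. The 8 endothelial markers, all measured, summed to 76.9 to 86.7 RPKM in uninfused WT and 107 to 116 RPKM in uninfused Gcg-/-, and 4 of 8 rose (Pecam1, Stab2, Lyve1 and Cdh5). These 4 calls were lost without library 2, 3 or 4 (limma adjusted p 0.0883 to 0.216) and held without library 6. Without library 1 only the call of Cdh5 held (limma adjusted p = 0.0479). Without library 5 only that of Lyve1 held (limma adjusted p = 0.0417). Without library 4 the difference in Lyve1 went from 1.03 to 0.67. The 8 Kupffer cell markers summed to 126 to 166 RPKM and 193 to 202 RPKM, the 8 stellate cell markers to 86.0 to 97.0 RPKM and 118 to 122 RPKM, and the 5 cholangiocyte markers to 16.4 to 32.8 RPKM and 60.3 to 177 RPKM. Of these, 0 were called in limma. An unadjusted p under 0.05 in limma was found for 6 of 8 endothelial, 6 of 8 Kupffer, 3 of 8 stellate and 1 of 3 cholangiocyte markers tested. The share of all genes was 17.5%. The cholangiocyte sum was nearly all Spp1, at 58.4, 120 and 175 RPKM in uninfused Gcg-/- and 14.3 to 30.6 RPKM in uninfused WT, while Krt19, Krt7, Epcam and Sox9 were each at most 1.29 RPKM in these libraries. None of these markers was at 0 in all libraries. The part of these cells in the Etfdh difference was not tested, and in bulk tissue fewer cells of a type and less RNA per cell cannot be told apart. The 10 hepatocyte markers had a median difference of -0.05, with 0 called and 3 at an unadjusted p under 0.05 in limma. That median does not show that each hepatocyte marker was unchanged.

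Ketone bodies are represented by Acat1, the mitochondrial thiolase that condenses acetyl-CoA, and Bdh1, which interconverts acetoacetate and hydroxybutyrate. Acat1 had group means of 102 to 127 RPKM. Bdh1, the dehydrogenase, was at 58.3, 61.3 and 62.97 RPKM in uninfused WT and at 84.4, 58.6 and 52.9 RPKM in uninfused Gcg-/- libraries. Bdh1 at 30 µg/d stood at 74.99, 66.9, 53.3 and 52.99 RPKM in WT and 47.7, 57.02, 69.7 and 59.2 RPKM in Gcg-/-. Bdh1 at 150 µg/d stood at 54.7, 57.2, 42.5 and 60.2 RPKM in WT and 57.7, 56.8, 43.4 and 40.7 RPKM in Gcg-/-. The 150 µg/d groups held the lowest values, but every group overlapped its uninfused controls. The difference at 150 µg/d in Gcg-/- was -0.38 ± 0.17 (limma adjusted p = 0.253), and -0.18 without library 4.

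Of 7 other genes of ketogenesis and ketone transport, 0 were called in limma in the 5 main comparisons, and 0, 0, 1, 2 and 3 had an unadjusted p under 0.05 (in order, the genotypes without infusion, the low and high dose in WT, and the low and high dose in Gcg-/-). Beside these counts, the shares of all genes were 17.5, 5.67, 12.1, 10.1 and 18.4%. The median differences of the 7 genes were, in the same order, 0.18, -0.04, -0.04, -0.30 and -0.33. Without library 4 the median was 0.07 for Gcg-/- against WT, and -0.05 and 0.02 at the low and high dose in Gcg-/-.

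The peroxisomal pair spread more widely. Ehhadh, the peroxisomal bifunctional enzyme, had group means of 61.1 to 103 RPKM and its highest value, 170 RPKM, in library 4. Acaa1b, a peroxisomal thiolase, was at 353, 506 and 513 RPKM in uninfused WT and at 553, 525 and 453 RPKM in uninfused Gcg-/- libraries. Acaa1b at 30 µg/d stood at 489.7, 282, 501 and 267 RPKM in WT and 375, 313, 422 and 253 RPKM in Gcg-/-. Acaa1b at 150 µg/d stood at 365, 502, 219.5 and 325 RPKM in WT and 252, 520.2, 254 and 253 RPKM in Gcg-/-. Each library at 30 µg/d in Gcg-/- lay below each uninfused one, and at 150 µg/d 3 of 4 did so by a wide margin while library 20 lay among the controls. The difference at 150 µg/d was -0.75 ± 0.30 (limma adjusted p = 0.184). Reads of Acaa1b may be divided with its near-identical copy Acaa1a. Of 18 other peroxisomal oxidation genes, 0 were called in limma in the 5 main comparisons. In the same order, 1, 1, 3, 5 and 4 of the 18 had an unadjusted p under 0.05 in limma. Over all genes the shares were 17.5, 5.67, 12.1, 10.1 and 18.4%.

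Ppara, the receptor itself, was at 53.2, 66.1 and 60.7 RPKM in uninfused WT and at 69.3, 58.6 and 50.7 RPKM in uninfused Gcg-/- libraries. Ppara at 30 µg/d stood at 78.6, 72.3, 55.6 and 48.6 RPKM in WT and 43.5, 61.1, 52.9 and 53.1 RPKM in Gcg-/-. Ppara at 150 µg/d stood at 69.00, 77.5, 62.9 and 49.1 RPKM in WT and 76.9, 63.3, 48.2 and 61.5 RPKM in Gcg-/-. All groups overlapped. The difference for Gcg-/- against WT was -0.02, with a 95% interval from -0.43 to 0.39, and the limma adjusted p was 0.978.

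**Figure D4:**
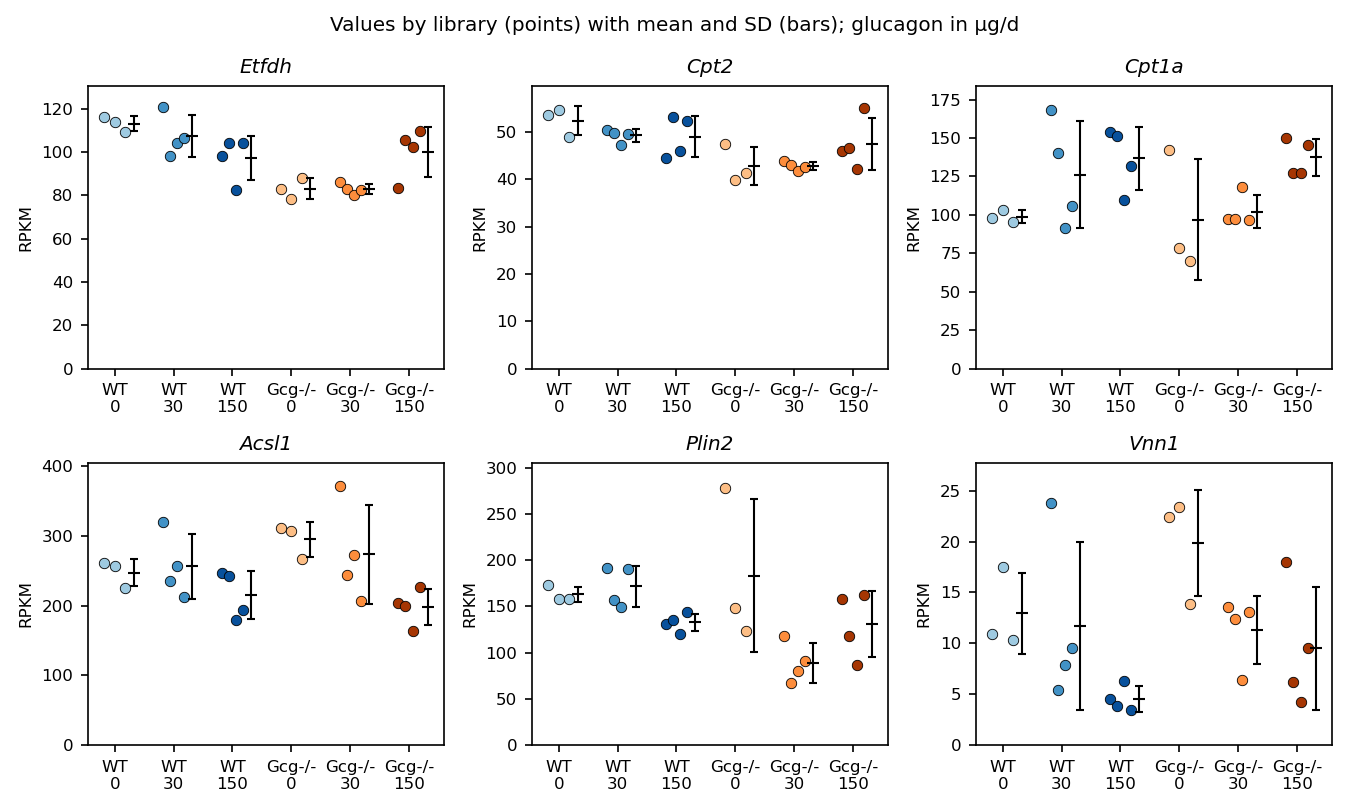
RPKM of 6 genes in each library (points) with the group mean and SD beside them, by genotype and glucagon dose in µg/d, on axes from 0. Etfdh in uninfused Gcg-/- sits at 78.1 to 88.0 RPKM, below all uninfused WT values, and the high Cpt1a and Plin2 points of uninfused Gcg-/-, 142 and 278 RPKM, are both library 4.

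At 30 µg/d in Gcg-/- the smallest p of the 31 genes belonged to Plin2 (chr4:86626910-86670217, minus strand). Plin2, which coats lipid droplets, was at 173, 158 and 158 RPKM in uninfused WT and at 278, 149 and 123 RPKM in uninfused Gcg-/- libraries. Plin2 at 30 µg/d stood at 192, 157, 149 and 190.1 RPKM in WT and 118, 67.4, 79.8 and 90.6 RPKM in Gcg-/-. Plin2 at 150 µg/d stood at 131, 135, 120.4 and 144 RPKM in WT and 158, 118, 86.2 and 162 RPKM in Gcg-/-. In Gcg-/- each library at 30 µg/d lay below each uninfused Gcg-/- library and below each WT library at the same dose. Plin2 differed from uninfused Gcg-/- by -0.97 ± 0.24 (limma adjusted p = 0.134) and from WT at 30 µg/d by -0.96 ± 0.22 (limma adjusted p = 0.0670), which share the infused libraries. In WT the same dose gave 0.07 ± 0.24 (limma adjusted p = 0.983), and the dose effects differed by -1.04 ± 0.34 (limma adjusted p = 0.386).

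Plin2 at 150 µg/d was back within the range of the uninfused Gcg-/- libraries in 2 of 4 libraries. Without library 4 the low-dose difference in Gcg-/- was -0.63. Without library 6 it was -1.21, with a limma adjusted p of 0.0438. Without libraries 4 and 13 the genotype difference at 30 µg/d was -0.92, with a limma adjusted p of 0.0458.

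Vnn1, the pantetheinase, a strongly PPARalpha-dependent liver gene, was at 10.9, 17.5 and 10.3 RPKM in uninfused WT and at 22.4, 23.4 and 13.8 RPKM in uninfused Gcg-/- libraries. Vnn1 at 30 µg/d stood at 23.8, 5.42, 7.91 and 9.58 RPKM in WT and 13.6, 12.4, 6.36 and 13.1 RPKM in Gcg-/-. Vnn1 at 150 µg/d stood at 4.50, 3.80, 6.30 and 3.42 RPKM in WT and 17.97, 6.21, 4.25 and 9.54 RPKM in Gcg-/-. In WT each library at 150 µg/d lay below each uninfused library. The difference was -1.33 ± 0.41 in WT (limma adjusted p = 0.190) and -1.13 ± 0.41 in Gcg-/- (limma adjusted p = 0.150). Library 19 was the high value in Gcg-/- at this dose, and without it the difference was -1.47, with a limma adjusted p of 0.0387. Without library 21 it was -0.85 (limma adjusted p = 0.325).

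Cyp4a10, a fatty acid omega-hydroxylase, was at 37.7, 101 and 129 RPKM in uninfused WT and at 457, 159 and 44.2 RPKM in uninfused Gcg-/- libraries. Cyp4a10 at 30 µg/d stood at 157, 8.39, 74.02 and 23.9 RPKM in WT and 14.5, 33.6, 234 and 19.8 RPKM in Gcg-/-. Cyp4a10 at 150 µg/d stood at 74.3, 56.1, 18.8 and 8.84 RPKM in WT and 114, 50.6, 63.6 and 55.2 RPKM in Gcg-/-. Libraries 4 and 13, the pair with female-biased transcripts, held the highest values. Every infused group overlapped its controls.

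Cyp4a14, the neighbouring omega-hydroxylase gene, was at 8.98, 48.5 and 64.9 RPKM in uninfused WT and at 331, 35.9 and 14.1 RPKM in uninfused Gcg-/- libraries. Cyp4a14 at 30 µg/d stood at 119, 0.727, 26.2 and 3.65 RPKM in WT and 1.67, 4.22, 142 and 2.84 RPKM in Gcg-/-. Cyp4a14 at 150 µg/d stood at 35.1, 16.4, 4.78 and 2.57 RPKM in WT and 8.05, 5.82, 32.1 and 12.8 RPKM in Gcg-/-. The same libraries were highest, and library 8 was lowest for both genes. The means of Gcg-/- and WT without infusion, 127 ± 177 and 40.8 ± 28.7 RPKM (SD, n = 3 each), differed by less than the spread of their libraries, at 0.84 ± 1.54 on the log2 scale (limma adjusted p = 0.826). The lowest value, in library 8, was worth about 22 reads.

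Cyp4a10 and Cyp4a14 varied together from library to library. With group means removed, r was 0.942 (permutation p = 3e-05, adjusted p = 0.00012 over 4 pairs) and rho was 0.951 (permutation p = 1e-05, the smallest these permutations can give, adjusted p = 4e-05). Without libraries 7 and 13, r was 0.911. The 2 genes lie next to each other at chr4:115486200-115496158 (Cyp4a14, minus strand) and chr4:115518287-115533649 (Cyp4a10, plus strand), and how reads shared by similar Cyp4a copies were divided is not given in the sources used here.

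Cyp4a14 is itself counted among the genes higher in female liver, and was left out of their mean because it is a member. Cyp4a14 also varied with the mean of the female-biased genes, with r = 0.628 (permutation p = 0.0131, adjusted p = 0.0175) and rho = 0.625 (permutation p = 0.00997, adjusted p = 0.0133). That relation rested on 2 libraries: without 4 and 13, r was 0.389 with the group means as they were, and -0.16 once the means were taken again. All 22 libraries held Y-linked transcripts.

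**Figure D5:**
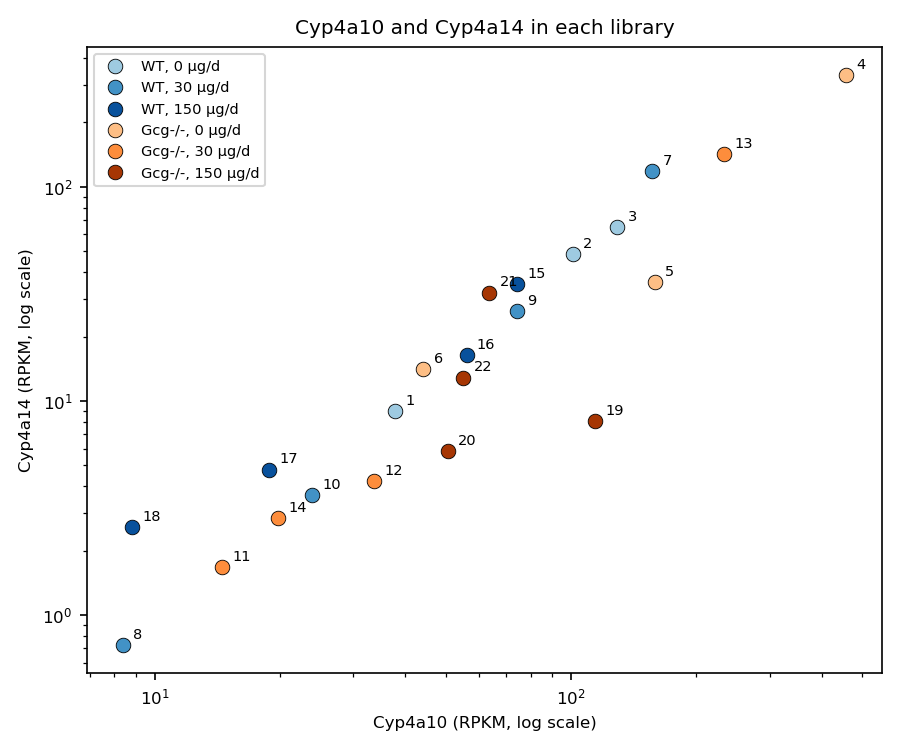
Cyp4a10 against Cyp4a14 in each library, both in RPKM on log axes, coloured by genotype and dose and marked with the library number. Points run along a diagonal from library 8 (8.39 and 0.727 RPKM) to library 4 (457 and 331 RPKM), and every group is scattered along it.

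Pdk4, the kinase that shuts pyruvate dehydrogenase during fasting, was at 0.972, 1.70 and 0.859 RPKM in uninfused WT and at 1.92, 5.34 and 0.674 RPKM in uninfused Gcg-/- libraries. Pdk4 at 30 µg/d stood at 0.947, 0.335, 0.425 and 1.54 RPKM in WT and 4.94, 1.23, 0.795 and 0.62 RPKM in Gcg-/-. Pdk4 at 150 µg/d stood at 1.47, 1.67, 1.10 and 2.43 RPKM in WT and 3.07, 2.83, 1.22 and 0.597 RPKM in Gcg-/-. These were the lowest levels of the 31 genes, and 1 read was worth 0.0161 to 0.0257 RPKM. Library 5 and library 11, both Gcg-/-, held the high values, and the groups overlapped.

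Angptl4, a secreted inhibitor of lipoprotein lipase, was at 28.5, 28.7 and 19.1 RPKM in uninfused WT and at 27.1, 54.5 and 39.5 RPKM in uninfused Gcg-/- libraries. Angptl4 at 30 µg/d stood at 32.1, 33.9, 41.5 and 25.03 RPKM in WT and 56.8, 46.4, 20.3 and 38.9 RPKM in Gcg-/-. Angptl4 at 150 µg/d stood at 51.1, 41.05, 28.3 and 25.8 RPKM in WT and 65.9, 16.1, 26.3 and 38.5 RPKM in Gcg-/-. The 4 highest values fell in 4 different groups. Pdk4 and Angptl4, both known as quick responders to fatty acids, showed no relation that passed the test, with r = 0.230 (permutation p = 0.421, adjusted p = 0.421) and rho = 0.214 (permutation p = 0.432, adjusted p = 0.432), and -0.01 without libraries 5 and 11. Acot1, a cytosolic acyl-CoA thioesterase that shares sequence with other Acot genes, had group means of 6.11 to 12.3 RPKM and ran from 2.86 to 16.5 RPKM.

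Groups that did not overlap were counted in the 9 comparisons of 2 groups, beside the same count over all genes. For uninfused Gcg-/- against WT, 1 of the 31 genes lay wholly higher (Acsl1), beside 13.1% of all genes, and 3 wholly lower (Cpt2, Acads and Etfdh), beside 11.6%. At 150 µg/d in WT, 1 was wholly higher (Cpt1a), beside 5.27%, and 4 wholly lower (Acadm, Etfdh, Vnn1 and Plin2), beside 9.18%. At 30 µg/d in Gcg-/-, 0 were wholly higher, beside 3.18%, and 4 wholly lower (Eci2, Acaa1b, Vnn1 and Plin2), beside 5.58%. At 150 µg/d in Gcg-/-, 0 were wholly higher, beside 4.55%, and 1 wholly lower (Acsl1), beside 8.95%. Between genotypes at 30 µg/d, 0 were wholly higher in Gcg-/-, beside 2.81%, and 3 wholly lower (Cpt2, Etfdh and Plin2), beside 3.51%. At 150 µg/d, 0 were wholly higher in Gcg-/-, beside 0.777%, and 0 wholly lower, beside 0.708%. For 150 against 30 µg/d in WT, 0 were wholly higher, beside 1.58%, and 1 wholly lower (Plin2), beside 2.21%. For the same doses in Gcg-/-, 1 was wholly higher (Cpt1a), beside 2.66%, and 0 wholly lower, beside 3.63%. At 30 µg/d in WT, 0 were wholly higher than without infusion, beside 3.24%, and 0 wholly lower, beside 4.25%.

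The wider pathway held few calls. Of 19 further genes of fatty acid uptake and activation, 1 was called in the 5 main comparisons. It was Fabp1, the liver fatty acid binding protein, which fell by 0.73 ± 0.15 at 150 µg/d in Gcg-/- (limma adjusted p = 0.0161), from 7991 ± 347 (SD, n = 3) to 4871 ± 919 RPKM (SD, n = 4). That call was lost without library 4, 5, 21 or 22 (limma adjusted p 0.0516 to 0.0654). Of the 19 genes, 2, 0, 6, 3 and 5 had an unadjusted p under 0.05 in limma, in the order of comparisons used above. The shares of all genes in that order were 17.5, 5.67, 12.1, 10.1 and 18.4%. Of 31 further PPARalpha targets and partners tested, 2 were called. In the same order, 6, 0, 3, 7 and 10 of the 31 had an unadjusted p under 0.05 in limma. Ucp2, a mitochondrial carrier, rose by 1.17 ± 0.29 in uninfused Gcg-/- against WT (limma adjusted p = 0.0452), from 13.05 ± 1.63 to 30.7 ± 3.82 RPKM (SD, n = 3 each). Its call was lost without library 1, 2, 3, 4 or 5 (limma adjusted p 0.0924 to 0.181). Retsat, retinol saturase, gave 275, 121 and 139 RPKM in uninfused Gcg-/- libraries 4, 5 and 6, and 68.7 to 93.7 RPKM in Gcg-/- at 150 µg/d. It fell by 1.03 ± 0.25 (limma adjusted p = 0.0313), from 178 ± 84.5 (SD, n = 3) to 81.9 ± 13.4 RPKM (SD, n = 4). Without library 4 the difference was -0.67 ± 0.22 and did not pass (limma adjusted p = 0.179), and the call was also lost without library 20, 21 or 22 (limma adjusted p 0.0587 to 0.0743). None was called in limma among 14 genes of lipogenesis (at most 3 at an unadjusted p under 0.05 in any of the 5 comparisons), 9 of lipolysis and lipid droplets (at most 2) and 8 of pyruvate dehydrogenase and its kinases (at most 2).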

How the data were processed

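Per the labels' protocols, RNA came from flash-frozen liver, was purified with DNase and selected for poly(A), and went into strand-specific KAPA libraries. The deposited RPKM values were made by the authors, 1 column for each of 22 libraries with an Entrez identifier and symbol per gene, without pooling. CASAVA 1.8.2, FastQC and the build GRCm38 are named in the submitters' processing notes. Not given in the sources used here are the aligner, counter, annotation and use of strand. Reads of overlapping genes or near-identical copies (Cyp4a, Acot and Acaa1 genes) are therefore uncertain.

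The steps between low RPKM values gave whole reads for 64.4 to 69.7% of values of 3974 genes (within 0.1 of a read, where chance gives 20%). That was too few for a count test, so depths are estimates. Groups came from the titles. The fit used limma 3.58.1 (R 4.3.3) on log2(RPKM + 1) of the 11590 genes with a mean of at least 0.5 RPKM, with 6 groups, no covariate, a mean-variance trend (16 residual and 3.18 prior degrees of freedom), 11 comparisons and Benjamini-Hochberg adjustment over all genes tested. The fit was tested on simulated data. A fold change on this scale understates changes of low genes such as Pdk4. SD values are on RPKM, SE values are limma's.

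The 4 correlations used deviations from group means, with 100000 two-sided permutations within groups. The members and gene lists were chosen with earlier results of these data known. Values in every library are given for members called, for the 8 members with the smallest p in the 5 main comparisons, and for Ppara, Cpt1a, Hadha, Hadhb, Bdh1, Pdk4, Cyp4a10, Cyp4a14, Plin2 and Angptl4. Of companion lists, called genes are named, and values of some other genes are not reported here. Positions and promoters are from RefSeq (GRCm38.p6), which matched 24375 identifiers. Start sites of coding transcripts in GENCODE bounded the printed upstream stretches. Alternatives were other pseudocounts, filters, scalings, library weights, fits of only the groups compared, and fits with each library, or libraries 4 and 13, left out. Leaving libraries out for called genes of the other lists, and library 4 for the list medians, was added after seeing the data.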

Additional observations from a re-analysis of the deposited data

Results flagged for a closer look

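In the groups of 4 libraries, a library was marked when its gap to the nearest of the other 3 took up more of the group's range than Dixon's 95% critical value, which chance does in about 1 of 20 groups. Among 124 sets of gene and group, 6 were marked, which is close to the share that chance gives. Sets that share a library are not independent. Library 13 (Gcg-/- at 30 µg/d) accounted for 3 of them: Cyp4a14 was at 142.5 RPKM there and at 1.672 to 4.222 RPKM in the other 3, Cpt1a was at 118.2 RPKM against 96.38 to 97.03 RPKM, and Vnn1 was at 6.356 RPKM against 12.38 to 13.56 RPKM. This is the library whose female-biased genes were also high, a class to which Cyp4a14 itself belongs. The part of that in the 3 values was not tested. Acaa1b was at 520.2 RPKM in library 20 (Gcg-/- at 150 µg/d) and at 251.8 to 254 RPKM in the others. Hadha was at 107.9 RPKM in library 19 of the same group and at 123.2 to 126.3 RPKM in the others. Acadvl was at 125 RPKM in library 17 (WT at 150 µg/d) and at 150.6 to 152.1 RPKM in the others.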

How the results depend on the processing

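No paired analysis was possible because the running numbers of the libraries are unique, so nothing in the labels pairs them across groups. For uninfused Gcg-/- against WT, 1 member was called, and 2 with library weights (Cpt2 joined Etfdh). With only the groups compared or without libraries 4 and 13, 0 were called, and 0 to 1 with each library left out. Over all 11590 genes, 179 were called, and 945 with library weights. Of all genes, 128 were called with only the groups compared and 22 without libraries 4 and 13. With each library left out, 9 to 294 of all genes were called. At 150 µg/d in Gcg-/-, 0 members were called, and 4 with library weights (Acsl1, Cpt1a, Etfdh and Vnn1). Without libraries 4 and 13, 1 was called (Cpt1a), and 0 to 2 with each library left out. Over all 11590 genes, 315 were called, and 770 with library weights. Of all genes, 90 were called without libraries 4 and 13, and 61 to 586 with each library left out. At 150 µg/d in WT 1 member was called with library weights (Vnn1), beside 438 of all 11590 genes. At 30 µg/d in Gcg-/- 0 to 1 members were called with each library left out, beside 1 to 33 of all genes. For 150 against 30 µg/d in Gcg-/- 1 member was called with library weights (Etfdh), and 0 to 1 with each library left out. Over all 11590 genes, 541 were called with library weights. With each library left out, 10 to 282 of all genes were called. Between genotypes at 30 µg/d 1 member was called with quantile normalization (Etfdh) and 2 with library weights (Etfdh and Plin2). Without libraries 4 and 13, 1 was called (Plin2). Of all genes, 27 were called with quantile normalization, 86 with library weights and 46 without libraries 4 and 13. The correlation of Cyp4a14 with the female-biased mean turned to -0.16 (adjusted permutation p = 0.613) without libraries 4 and 13, and was 0.485 to 0.684 with each library left out (adjusted permutation p = 0.0706 without library 4 and 0.0669 without library 13). For these shifts the cause was not tested. The single-gene fold changes fitted again were only those of members with an unadjusted p under 0.05 in limma in the reported fit. That choice alone made a turn of direction unlikely. Of 538 such fold changes under alternatives, 514 kept their direction and their side of the threshold. Of the others, 17 passed it where the reported value did not, 7 no longer passed it and 0 turned direction. Depth, estimated at 11.17 to 17.78 M reads, limits Pdk4 most of the members, whose lowest value was worth about 14 reads.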

Other observations

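Some of the 10 genes whose variation between libraries was most like that of Cyp4a14 are named here, picked by that likeness, so their values are a description. Pearson's r of deviations from group means over the 22 libraries was 0.942 for Cyp4a10, 0.914 for Steap2, a metalloreductase, 0.908 for the desmosomal gene Dsp, 0.899 for Ugcg, which makes glucosylceramide, 0.889 for the kinase Sgk3 and 0.860 for Hsd17b11, a lipid droplet enzyme. Among the other 30 members the median r was 0.36, and 9 of 30 exceeded 0.5, beside 8.04% of all genes tested, whose median was 0.063. Acadl, at 0.787, and Ehhadh, at 0.786, followed Cyp4a10 among the members. Without libraries 4 and 13 the median of the members was 0.313. The points share library and tissue, so no p is given.

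The peroxisomal thioesterase gene Acot3 ran from 0.159 to 30.3 RPKM and was highest in library 4, as was Fgf21, a fasting hormone of the liver, at 4.86 RPKM. Cyp4a31, a close copy of Cyp4a10, ran from 0.499 to 13.5 RPKM and was also highest there.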
